A study of Mus musculus with 6 samples.

Results

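The genes described here are 10 genes of the NRF2 antioxidant and glutathione system, Nfe2l2, Keap1, Gclc, Gclm, Gpx1, Gpx4, Prdx1, Srxn1, Txnrd1 and Nqo1. They were taken by name from the 26082 gene names of the deposited RNA-Seq table, and each stood on a single line of it. Expression was compared between 3 samples of vehicle-treated and 3 samples of DS-5272-treated MLL-AF9 leukemia cells. Both groups carried the retrovirally transduced MLL-AF9 fusion gene in C57BL/6J hematopoietic progenitors, which drives a transplantable mouse model of acute myeloid leukemia. DS-5272, an inhibitor of the binding between MDM2 and p53, was given by mouth at 80 mg/kg, and the leukemia cells were isolated from bone marrow with a cell sorter 24 h later. The recipients had not been irradiated and thus kept their own blood cells. The sources used here do not state that each sample came from a separate mouse, so the p-values measure the spread between samples only.

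NRF2, the protein made from Nfe2l2, is a transcription factor that is held low by KEAP1, an adaptor that presents it for ubiquitination and proteasomal degradation. When oxidants or electrophiles modify KEAP1, NRF2 accumulates, pairs with a small MAF protein and binds antioxidant response elements of genes for glutathione synthesis, for thioredoxin and peroxiredoxin recycling and for quinone detoxification. Because this switch acts on the protein, the transcript levels of Nfe2l2 and Keap1 do not measure NRF2 activity.

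Values are FPKM, the number of fragments divided by transcript length and by library size. A gene is called upregulated or downregulated where limma on log2(FPKM + 1) gave a Benjamini-Hochberg adjusted p under 0.05 over the 11130 genes whose mean was 1 FPKM or more, and log2 fold changes are DS-5272 minus vehicle on that scale. Of the 10 genes, 9 passed the filter on low values and Nqo1 did not. Nfe2l2 and Gpx4 were upregulated, Prdx1 and Gclc were downregulated, and the other 5 tested genes did not pass the threshold. Among all genes tested, 24.2% were upregulated and 22.0% were downregulated, so that 2 called genes of 9 in each direction is close to the share in the whole table. The median log2 fold change was 0.20 for the 9 genes and 0.04 for all genes tested. The groups did not overlap, with DS-5272 higher, for 4 of the 9 genes, against 32.1% of all genes, and with DS-5272 lower for 2 of the 9, against 29.7% of all genes.

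The libraries of the groups also differed in FPKM sums, which overlapped narrowly, in estimated depth and in several sums of marker transcripts. The FPKM values summed to between 445316 and 501241 in the vehicle samples and to between 499229 and 661184 in the DS-5272 samples. The depth that the spacing of low FPKM values implies was 37800000 to 46800000 fragments in the vehicle samples and 25200000 to 34900000 fragments in the DS-5272 samples. Transcripts of 10 genes of neutrophil granules and late neutrophil maturation summed to 465, 1979 and 2632 FPKM with vehicle and to 5170, 12877 and 21576 FPKM with DS-5272 (replicates 1 to 3 in turn), and 8 of the 10 were upregulated. Of 12 genes of the leukemia program, 9 had an entry of their own, and these summed to between 4541 and 5295 FPKM with vehicle and to between 1792 and 2430 FPKM with DS-5272, with Mpo, Elane, Ctsg, Prtn3 and Kit downregulated and Ptprc upregulated. The proteases Elane (1835 to 325 FPKM in the means), Ctsg (1492 to 816) and Prtn3 (992 to 618) made up most of these sums, Meis1 (75.2 to 90.2) and Cd34 (85.9 to 96.3) were not called, and the joined entry of Hoxa9 and Hoxa10 had 259 ± 35.9 and 220 ± 16.4 FPKM (SD, n = 3 each). Macrophage markers summed to between 80.9 and 142 FPKM with vehicle and to between 208 and 655 FPKM with DS-5272. The highest sum was in DS-5272 replicate 1. Of 11 tested markers, 4 were upregulated, C1qa, C1qb, C1qc and Adgre1. Outside DS-5272 replicate 1, Adgre1 and Vcam1 made up most of these sums. With DS-5272, Adgre1 had 59.8, 79.1 and 116 FPKM and Vcam1 143, 74.8 and 85.7 FPKM, the latter overlapping vehicle. Cd5l had 61.7, 1.76 and 4.43 FPKM and Apoe 211, 18.6 and 34.7 FPKM, against at most 1.64 and 24.5 FPKM with vehicle. Erythroid markers summed to at most 4.70 FPKM with vehicle and to 147, 27.5 and 12.8 FPKM with DS-5272. NK-cell markers summed to between 0.435 and 0.869 FPKM with vehicle and to between 1.8 and 3.18 FPKM with DS-5272, T-cell markers to at most 0.463 FPKM with vehicle and 3.58 FPKM with DS-5272, and B-cell markers to between 3.52 and 5.37 FPKM in all 6 samples. No listed marker with a separate entry was at 0 in all samples. Spi1, Hbb-bt, Ahsp and Trac had no entry, and Hbb-bs stood in a joined entry that was left out of the sums. In such sorted bulk samples, fewer cells of a type and less RNA per cell cannot be told apart, and the part of these markers in the results below was not tested.

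Among p53 targets, Cdkn1a, the gene of the cell cycle inhibitor p21, had 14.8, 28.1 and 25.5 FPKM with vehicle and 32.3, 117 and 485 FPKM with DS-5272 in replicates 1, 2 and 3. Mdm2, the gene of the ubiquitin ligase that DS-5272 targets, had 27.1, 36.3 and 40.0 FPKM with vehicle and 42.6, 78.8 and 210 FPKM with DS-5272. Both were higher in every DS-5272 sample than in every vehicle sample, and both were far higher in DS-5272 replicate 3 than in DS-5272 replicate 1. Their log2 fold changes were 2.43 and 1.36, with adjusted p = 0.061 and 0.073 in limma, and 0.014 and 0.015 with the replicate number as a block. Without DS-5272 replicate 1 the adjusted p in limma was 0.011 for Cdkn1a and 0.017 for Mdm2. Without any other 1 sample neither passed, at 0.093 to 0.154 for Cdkn1a and 0.093 to 0.178 for Mdm2. The log2 fold changes fell to 1.45 and 0.75 without DS-5272 replicate 3.

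**Figure D1:**
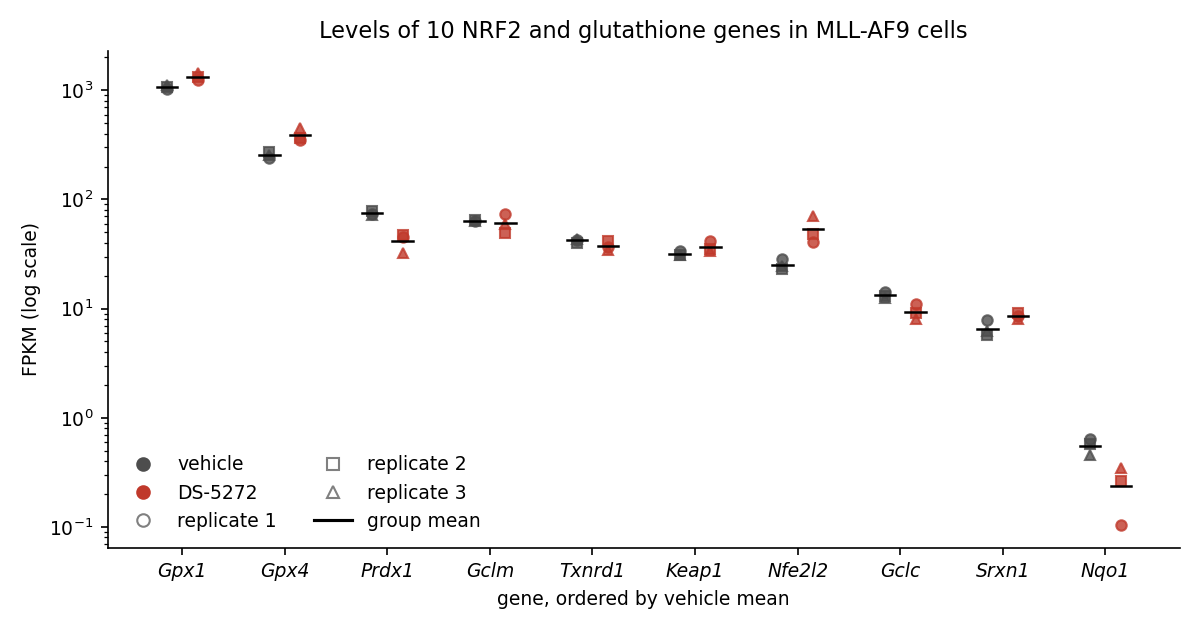
FPKM on a log axis (y) of the 10 genes (x, ordered by vehicle mean) in 3 vehicle (grey) and 3 DS-5272 (red) samples, with marker shapes for the replicate number and black bars for group means. The vehicle means run from 1077 FPKM for Gpx1 to 0.554 FPKM for Nqo1, and the red points lie apart from the grey ones for Nfe2l2, Gpx4, Prdx1, Gclc, Gpx1, Srxn1 and Nqo1.

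The promoters of the genes were read for the letters of the antioxidant response element. Windows from −250 to 50 around the RefSeq start site (GRCm38.p6) were given for 9 of the 10 genes. The core TGACNNNGC was searched on both strands and stood in a window of 5 of the 9 genes, Nfe2l2, Srxn1, Gclm, Prdx1 and Txnrd1, against 13.99% of the 27025 genes with a window. The longer form TGACTCAGC stood only in Prdx1 among the 9, against 0.5% of all genes, and TGANTCA, the AP-1 element that can lie inside it, in Srxn1 and Prdx1, against 8.97% of all genes. A match describes these letters in the window and shows no binding. Positions are counted from the start site, with the first transcribed base as 1. The stretches below are shown because these 4 genes, of which Prdx1 was downregulated and the others did not pass the threshold, all hold such letters near a start site. They run 5′ to 3′ on the plus strand, which is the coding strand of all 4 genes, with the matches in capitals.
Prdx1, chr4:116685349-116685494: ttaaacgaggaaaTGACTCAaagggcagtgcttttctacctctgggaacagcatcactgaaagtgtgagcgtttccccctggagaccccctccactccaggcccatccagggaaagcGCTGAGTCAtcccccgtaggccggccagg
Srxn1, chr2:152105402-152105505: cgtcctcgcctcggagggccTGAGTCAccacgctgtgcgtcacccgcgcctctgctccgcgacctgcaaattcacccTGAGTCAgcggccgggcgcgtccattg
Gclm, chr3:122245403-122245451: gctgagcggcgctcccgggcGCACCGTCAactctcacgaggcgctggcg
Txnrd1, chr10:82859094-82859142: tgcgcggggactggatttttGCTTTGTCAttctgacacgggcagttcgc
In Prdx1 the capitals mark TGANTCA at −237 and the reverse complement of TGACTCAGC at −133, which TGANTCA overlaps at −131. In Srxn1 they mark TGANTCA at −102 and −45, and the core stood outside the printed stretch, at 29 on the minus strand. In Gclm and in the second of the Txnrd1 windows, at a start site inside the gene, they mark the core on the minus strand, at −134 and −92. Nfe2l2 held the core at −240.

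The regulators are Nfe2l2 and Keap1. Nfe2l2 (chr2:75675513-75704641, minus strand) had 28.4, 22.9 and 24.7 FPKM with vehicle and 41.1, 48.5 and 71.3 FPKM with DS-5272, in the order of the replicate numbers as in all such lists. Every DS-5272 sample was above every vehicle sample, and DS-5272 replicate 3 was the highest. That sample also had the highest Cdkn1a, the highest granule gene sum and the lowest estimated depth, and the part of these was not tested. The means were 25.3 ± 2.81 and 53.6 ± 15.7 FPKM (SD, n = 3 each), a 2.12-fold ratio of means and a log2 fold change of 1.02 (SE, standard error, 0.21, limma adjusted p = 0.0093). The call held in all 17 alternatives, in which the log2 fold change ran from 0.77 to 1.19 and the adjusted p from 0.0068 to 0.040.

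Keap1 (chr9:21229730-21239361, minus strand) had 33.9, 30.9 and 30.7 FPKM with vehicle and 41.8, 35.0 and 33.8 FPKM with DS-5272. The groups overlapped narrowly, since vehicle replicate 1 was slightly above DS-5272 replicate 3, although each DS-5272 sample was above the vehicle sample of its number. The log2 fold change was 0.20 (95% interval −0.07 to 0.47, limma adjusted p = 0.183) and it became −0.06 after scaling to a common total. An antisense gene, Gm16754, overlaps an exon of Keap1 and shares 6.26% of its 100-base stretches, and the counting was not stated to use strand.

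Glutathione synthesis starts with glutamate-cysteine ligase, whose catalytic subunit is made from Gclc and whose modifier subunit, which eases feedback inhibition, is made from Gclm. Gclc (chr9:77754535-77794485, plus strand) had 14.2, 13.0 and 12.5 FPKM with vehicle and 11.0, 9.15 and 7.98 FPKM with DS-5272. Every DS-5272 sample was below every vehicle sample. The means were 13.2 ± 0.896 and 9.37 ± 1.51 FPKM (SD, n = 3 each) and the log2 fold change was −0.47 (SE 0.13, limma adjusted p = 0.027). The direction was the same in all alternatives, and the call was lost without vehicle replicate 1, 2 or 3 or without DS-5272 replicate 2, with adjusted p = 0.085, 0.081, 0.066 and 0.063, and where a change of 1 log2 unit or more was required.

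Gclm (chr3:122245557-122270732, plus strand) had 63.1, 65.3 and 63.3 FPKM with vehicle and 73.2, 49.5 and 59.7 FPKM with DS-5272. The vehicle samples lay close together, and the DS-5272 samples fell on both sides of them. The log2 fold change was −0.09 (95% interval −0.44 to 0.27, limma adjusted p = 0.644), and it was 0.05 without DS-5272 replicate 2. Gm17494 on the other strand and Gm6061 on the same strand overlap exons of Gclm.

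The plain FPKM ratio of Gclm to Gclc within a sample does not depend on the scaling of the libraries. It was 4.43, 5.02 and 5.07 with vehicle and 6.67, 5.40 and 7.49 with DS-5272 on the FPKM scale, with all DS-5272 samples above all vehicle samples. The log2 ratio was tested with 1 FPKM added to each gene, which leaves some dependence on scaling. This log2 ratio was higher with DS-5272 by 0.38, with p = 0.1 in a two-sided exact permutation test. That is the smallest p that 3 samples against 3 can give.

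Peroxides are reduced by glutathione peroxidases and peroxiredoxins. Gpx1 (chr9:108338903-108340343, plus strand), the abundant cytosolic selenium-dependent peroxidase, had 1031, 1076 and 1125 FPKM with vehicle and 1254, 1321 and 1431 FPKM with DS-5272. The groups did not overlap, and the order of the replicate numbers was the same in both. The means were 1077 ± 47.1 and 1335 ± 89.3 FPKM (SD, n = 3 each), and the log2 fold change of 0.31 (SE 0.13) did not pass the threshold (limma adjusted p = 0.084). With the replicate number as a block it passed (adjusted p = 0.012), in a fit that called 30.3% of all genes upregulated and 24.9% downregulated, and it also passed without the mean-variance trend (adjusted p = 0.045). After scaling to a common total the log2 fold change of Gpx1 was 0.04.

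Gpx4 (chr10:80047166-80056439, plus strand), the peroxidase of membrane lipid hydroperoxides that protects cells from ferroptosis, had 242, 270 and 257 FPKM with vehicle and 348, 364 and 456 FPKM with DS-5272. All DS-5272 samples were above all vehicle samples. The means were 256 ± 13.9 and 389 ± 58.3 FPKM (SD, n = 3 each), and the log2 fold change was 0.59 (SE 0.14, limma adjusted p = 0.014). The call was lost under quantile normalization (log2 fold change 0.18, adjusted p = 0.148) and without vehicle replicate 3 (0.59, adjusted p = 0.052), and where a change of 1 log2 unit or more was required. Gpx4 shares 48.44% of the 100-base stretches of its transcript with the pseudogene Gpx4-ps2, so its level depends on how fragments of this sequence were assigned.

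Prdx1 (chr4:116685544-116700822, plus strand), an abundant cytosolic peroxiredoxin that reduces hydrogen peroxide and is recycled by thioredoxin, had 73.6, 78.6 and 72.5 FPKM with vehicle and 45.4, 47.3 and 32.0 FPKM with DS-5272. No DS-5272 sample reached the lowest vehicle sample, and DS-5272 replicate 3 was the lowest. The means were 74.9 ± 3.27 and 41.6 ± 8.31 FPKM (SD, n = 3 each), a ratio of means of 0.555, and the log2 fold change was −0.85 (SE 0.16, limma adjusted p = 0.0072). The call held in 16 of 17 alternatives and was lost only where a change of 1 log2 unit or more was required.

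Srxn1 (chr2:152105516-152111376, plus strand) encodes sulfiredoxin, which repairs over-oxidized peroxiredoxins. It had 7.83, 5.68 and 6.17 FPKM with vehicle and 8.52, 9.12 and 8.02 FPKM with DS-5272, without overlap between the groups. The log2 fold change was 0.35 (95% interval 0.03 to 0.66), and the adjusted p was 0.072 in limma. It was 0.038 without vehicle replicate 1 and 0.084 to 0.229 without any other 1 sample. After scaling to a common total the groups overlapped, and the log2 fold change of Srxn1 was 0.12 (limma adjusted p = 0.664).

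Txnrd1 (chr10:82833951-82897712, plus strand), the cytosolic thioredoxin reductase, had 43.0, 40.2 and 43.6 FPKM with vehicle and 36.5, 41.8 and 34.6 FPKM with DS-5272. DS-5272 replicate 2 lay among the vehicle samples and the other two below them. The log2 fold change was −0.17 (95% interval −0.42 to 0.08, limma adjusted p = 0.222) and was −0.43 (adjusted p = 0.058) after scaling to a common total.

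Nqo1 (chr8:107388225-107403206, minus strand), a quinone reductase that is widely used as a readout of NRF2 in other tissues, was barely expressed. It had 0.634, 0.574 and 0.454 FPKM with vehicle and 0.104, 0.261 and 0.344 FPKM with DS-5272, which corresponds to about 41, 30 and 26 fragments and about 5, 11 and 12 fragments at the estimated depths. The groups did not overlap, with a ratio of means of 0.426. The gene was under the filter and was not tested. In the fit of all genes without the filter, where 13.7% of genes were downregulated, Nqo1 had a log2 fold change of −0.33 (SE 0.09, limma adjusted p = 0.035), a scale that understates the change of so low a gene.

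**Figure D2:**
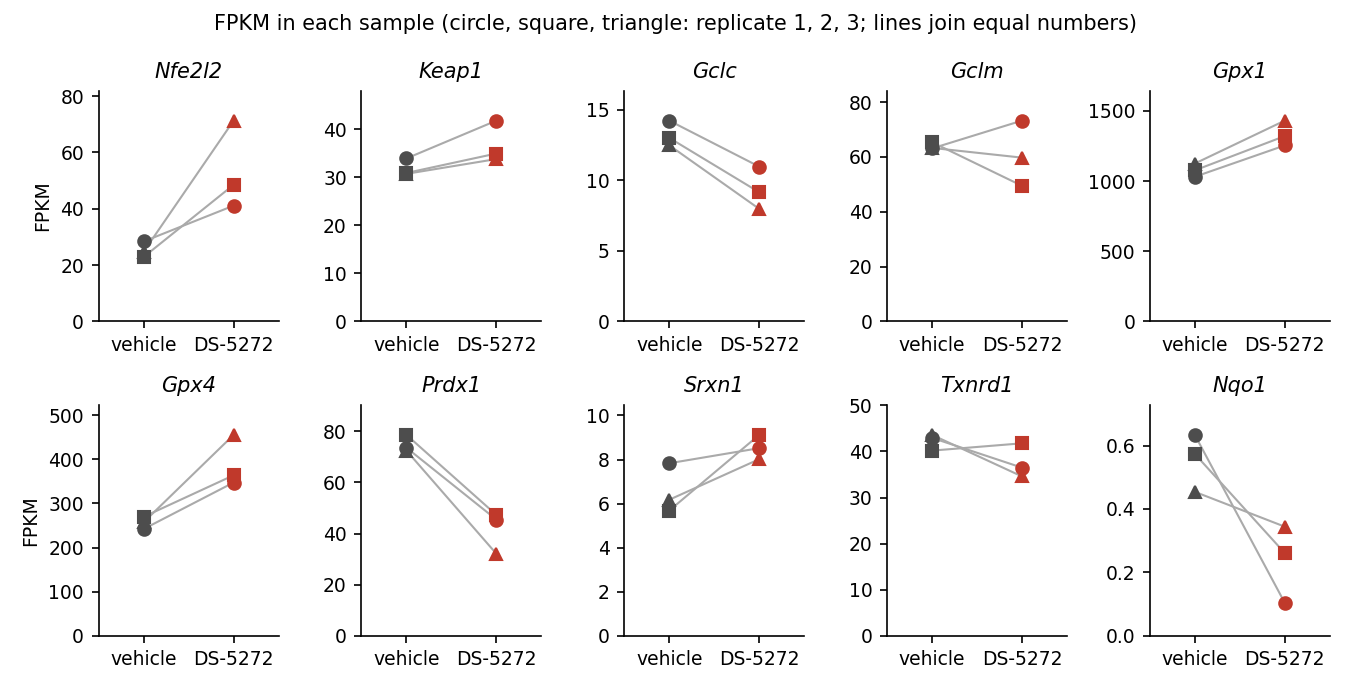
FPKM (y, linear axes from 0, 1 panel for each gene) of the 10 genes in the 3 vehicle (grey) and 3 DS-5272 (red) samples, with lines joining samples of equal replicate number. All 3 lines rise for Nfe2l2, Keap1, Gpx1, Gpx4 and Srxn1, all 3 fall for Gclc, Prdx1 and Nqo1, and those of Gclm and Txnrd1 go in both directions.

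With vehicle the FPKM levels ran in the order Gpx1, Gpx4, Prdx1, Gclm, Txnrd1, Keap1, Nfe2l2, Gclc, Srxn1 and Nqo1, and no neighbours in this order overlapped in their ranges. With DS-5272 the mean of Prdx1 stood below those of Gclm and Nfe2l2. The order there was Gpx1 at 1335, Gpx4 at 389, Gclm at 60.8, Nfe2l2 at 53.6, Prdx1 at 41.6, Txnrd1 at 37.6, Keap1 at 36.9, Gclc at 9.37, Srxn1 at 8.55 and Nqo1 at 0.236 FPKM. The ranges of the neighbours from Gclm down to Keap1 overlapped, as did those of Gclc and Srxn1. Nfe2l2 had a lower mean than Keap1 with vehicle and a higher mean with DS-5272, and the ranges of the pair did not overlap with vehicle (22.9 to 28.4 against 30.7 to 33.9 FPKM) but overlapped narrowly with DS-5272 (41.1 to 71.3 against 33.8 to 41.8 FPKM).

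Since the FPKM sums differed between samples, every sample was also scaled to a common total. This moved the median log2 fold change of all genes from 0.04 to −0.20, and 14.9% of genes were then upregulated and 30.4% downregulated. Nfe2l2 (log2 fold change 0.77, limma adjusted p = 0.012) and Gpx4 (0.33, adjusted p = 0.018) remained upregulated, and Prdx1 (−1.12, adjusted p = 0.010) and Gclc (−0.74, adjusted p = 0.035) remained downregulated.

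**Figure D3:**
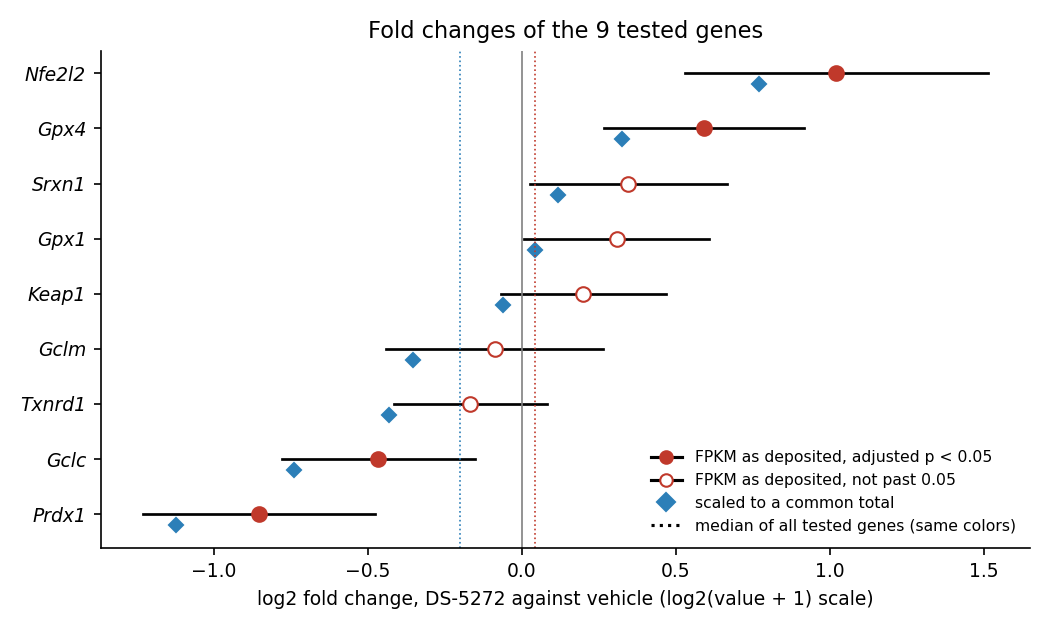
Log2 fold changes of the 9 tested genes (x, DS-5272 minus vehicle, log2(value + 1) scale) with 95% intervals from limma (black lines) for the FPKM as deposited (circles, filled where the adjusted p was under 0.05) and after scaling to a common total (blue diamonds), with the median of all tested genes as dotted lines. The diamonds lie to the left of the circles for all 9 genes, and the order of the genes runs from Prdx1 at −0.85 to Nfe2l2 at 1.02.

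The other genes of the system were taken from 9 lists by role, with 123 genes in all, of which 98 were tested. Of these, 30 were upregulated and 16 downregulated, which is 30.6% and 16.3% beside 24.2% and 22.0% of all genes, and their median log2 fold change was 0.17. After scaling to a common total, 22 were upregulated and 27 downregulated, which is 22.4% and 27.6% beside 14.9% and 30.4% of all genes. Quantile normalization gave 26 and 24 of the 98, beside 2418 and 3135 of all 11130 genes. On the common total, the upregulated and downregulated genes numbered 8 and 4 for the other NRF2 targets, 2 and 2 for the partners and regulators, 5 and 2 for glutathione supply, 1 and 7 for the transferases, 3 and 6 for the thioredoxin and peroxiredoxin genes, 0 and 6 for selenoprotein synthesis and 3 and 0 for the p53-linked genes. The counts that follow are for the FPKM as deposited. Genes with near-identical relatives, such as the glutathione transferases of the Gstm family, can share fragments and are uncertain to that extent.

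Of 13 tested partners and regulators of NRF2, 3 were upregulated and none was downregulated. The upregulated share of 23.1% is close to the 24.2% of all genes, of which 22.0% were downregulated. Mafk, a small MAF protein that pairs with NRF2 or with BACH1, went from 15.2 ± 4.06 to 34.7 ± 14.2 FPKM (SD, n = 3 each), a log2 fold change of 1.08 with adjusted p = 0.043 in limma. This call was lost without the filter (adjusted p = 0.081) and without any 1 sample other than DS-5272 replicate 1, at adjusted p = 0.062 to 0.122. Bach1, the repressor that competes with NRF2 at the same elements, went from 19.8 ± 0.196 to 34.2 ± 10.1 FPKM (log2 fold change 0.72, adjusted p = 0.022). Leaving out any 1 vehicle sample took the adjusted p of Bach1 to between 0.060 and 0.070.

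Of 20 other tested targets of NRF2, 12 were upregulated and 2 downregulated (60% and 10%, beside 24.2% and 22.0% of all genes), and the median log2 fold change was 0.73. Hmox1, the gene of heme oxygenase 1 and a target of both NRF2 and BACH1, had 17.0, 16.0 and 18.3 FPKM with vehicle and 104, 99.7 and 101 FPKM with DS-5272. The 3 DS-5272 samples were close to each other, while those of Cdkn1a, Mdm2 and Nfe2l2 were spread more widely. The log2 fold change was 2.50 (SE 0.09, limma adjusted p = 0.00018), and the call held in all 17 alternatives. Osgin1, an oxidative stress-induced growth inhibitor, had 4.55, 12.0 and 11.1 FPKM with vehicle and 17.8, 46.4 and 78.5 FPKM with DS-5272 (log2 fold change 2.12, adjusted p = 0.022), and its call was lost without vehicle replicate 1 or DS-5272 replicate 2 or 3 (adjusted p = 0.065, 0.063 and 0.054). Me1, the cytosolic malic enzyme that makes NADPH, went from 5.09 ± 0.633 to 2.30 ± 0.194 FPKM (log2 fold change −0.88, adjusted p = 0.0039), and Abcb6, a porphyrin transporter, from 4.79 ± 0.363 to 2.39 ± 0.669 FPKM (−0.79, adjusted p = 0.010).

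Of 14 tested genes of glutathione supply and recycling, 5 were upregulated and 1 was downregulated, which is 35.7% and 7.14% beside 24.2% and 22.0% of all genes. Slc7a11, the cystine importer subunit that feeds glutathione synthesis, was low, at 0.237, 0.509 and 0.387 FPKM with vehicle and 1.8, 1.8 and 2.73 FPKM with DS-5272. All DS-5272 samples were above all vehicle samples, at a log2 fold change of 1.17 (limma adjusted p = 0.0041), while Gclc was downregulated. The ratio of means was 5.59, which the log2(FPKM + 1) scale understates. Slc7a11 passed the filter only through the DS-5272 samples and fell under it without DS-5272 replicate 3. Oplah, also among the 5 upregulated genes, had means of 0.762 FPKM with vehicle and 2.99 FPKM with DS-5272. Its vehicle mean was likewise under the filter. Glrx, a glutaredoxin that removes glutathione from proteins, went from 65.3 ± 7.65 to 209 ± 47.6 FPKM (log2 fold change 1.64, adjusted p = 0.0021). Glo1, the glyoxalase that clears methylglyoxal with glutathione, went from 27.7 ± 0.874 to 20.9 ± 1.42 FPKM (−0.39, adjusted p = 0.015), and without any 1 vehicle sample the adjusted p was 0.055 to 0.059.

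Of 15 tested glutathione transferases, 6 were downregulated and 1 was upregulated (40% and 6.67%, beside 22.0% and 24.2% of all genes), and the median log2 fold change was −0.32. Gstm1, which joins glutathione to electrophiles, had 301, 297 and 332 FPKM with vehicle and 126, 125 and 119 FPKM with DS-5272, a log2 fold change of −1.32 (limma adjusted p = 0.0007). Gstcd went from 14.7 ± 0.952 to 6.87 ± 1.39 FPKM (−1.01, adjusted p = 0.0041), and an exon of Ints12 on the other strand overlaps it. Mgst1, a membrane-bound transferase with peroxidase activity, went the other way, from 47.2 ± 7.15 to 156 ± 40.5 FPKM (1.68, adjusted p = 0.0024).

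Among 15 tested thioredoxin and peroxiredoxin genes, 4 were upregulated and 3 downregulated, with a median log2 fold change of 0.06. These shares, 26.7% and 20%, are close to the 24.2% and 22.0% of all genes. Prdx5, a mitochondrial and peroxisomal peroxiredoxin, had 329, 478 and 511 FPKM with vehicle and 920, 1064 and 1559 FPKM with DS-5272 (log2 fold change 1.41, limma adjusted p = 0.0067). Prdx4, the peroxiredoxin of the endoplasmic reticulum, had 28.8, 28.4 and 23.7 FPKM with vehicle and 6.37, 8.06 and 2.92 FPKM with DS-5272 (−2.12, adjusted p = 0.0037). Prdx1, Prdx4 and Prdx5 therefore did not move together, since the first pair was downregulated and Prdx5 was upregulated. The exons of Prdx5 overlap those of Trmt112 on the other strand. Msrb1, a selenium-dependent methionine sulfoxide reductase, went from 205 ± 29.3 to 449 ± 109 FPKM (1.11, adjusted p = 0.0067), and Txnrd3, a further thioredoxin reductase, from 2.75 ± 0.269 to 1.40 ± 0.664 FPKM (−0.68, adjusted p = 0.039). The call of Txnrd3 was lost without the filter (adjusted p = 0.069) and without any 1 sample other than DS-5272 replicate 1 (adjusted p = 0.075 to 0.120). Txnrd2 and Prdx3, the mitochondrial relatives of Txnrd1 and Prdx1, were chosen after their values were seen, and had log2 fold changes of 0.51 (adjusted p = 0.010) and −0.33 (adjusted p = 0.022).

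Gpx1, Gpx4 and Txnrd1 are selenoproteins, which need a dedicated machinery that inserts selenocysteine at UGA codons. A list of 10 genes covered that machinery and selenium supply, the latter with Lrp8 and Scly. Of these 10, 2 were upregulated and 4 downregulated, which is 20% and 40% beside 24.2% and 22.0% of all genes. Pstk, the kinase that prepares the selenocysteine tRNA, went from 8.20 ± 1.11 to 4.68 ± 0.411 FPKM (log2 fold change −0.69, limma adjusted p = 0.0075), and Eefsec, the elongation factor that delivers it, from 24.1 ± 0.440 to 14.8 ± 2.07 FPKM (−0.67, adjusted p = 0.0059). Secisbp2l, a relative of the RNA-binding protein that recruits this factor, went from 10.1 ± 1.47 to 17.7 ± 2.87 FPKM (0.74, adjusted p = 0.010), and its call was lost after scaling to a common total (0.51, adjusted p = 0.108). Secisbp2, that RNA-binding protein, had a log2 fold change of 0.30 (adjusted p = 0.030), which was 0.05 after scaling to a common total, and without any 1 sample other than DS-5272 replicate 2 or 3 the adjusted p was 0.058 to 0.126.

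Of 6 tested antioxidant genes linked to p53, 3 were upregulated and none was downregulated, which is 50% and 0% beside 24.2% and 22.0% of all genes. Sesn3, 1 of the 3, had means of 0.433 FPKM with vehicle and 1.99 FPKM with DS-5272. It passed the filter only through the DS-5272 samples. Sesn2, a sestrin that p53 and NRF2 both induce, had 7.79, 6.98 and 6.81 FPKM with vehicle and 20.3, 24.2 and 52.7 FPKM with DS-5272 (log2 fold change 1.91, limma adjusted p = 0.0059). Trp53inp1, a p53-induced nuclear protein, had 10.3, 6.96 and 5.88 FPKM with vehicle and 24.3, 14.6 and 71.9 FPKM with DS-5272 (1.85, adjusted p = 0.029), and its adjusted p was 0.061 without the filter and 0.051 to 0.085 without any 1 vehicle sample. DS-5272 replicate 3 was the highest sample for both. None of Sod1, Sod2, Cat and Ccs, which encode superoxide dismutases, catalase and a copper chaperone of superoxide dismutase, passed the threshold, nor did the 1 other glutathione peroxidase that was tested, Gpx3, which had 143 ± 15.9 and 177 ± 27.4 FPKM (SD, n = 3 each; log2 fold change 0.30, adjusted p = 0.15).

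**Figure D4:**
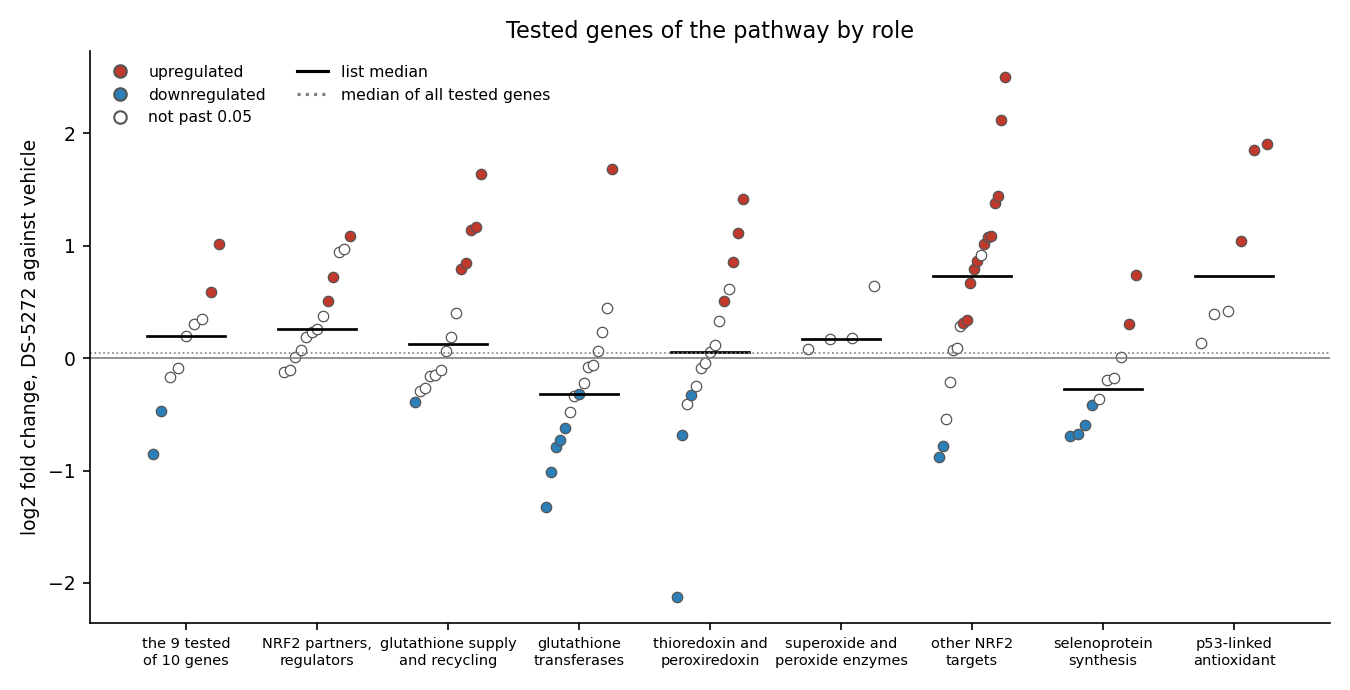
Log2 fold changes (y, DS-5272 minus vehicle, log2(FPKM + 1) scale) of the tested genes by role (x), with 1 point per gene, red where upregulated, blue where downregulated and open where the adjusted p was not under 0.05, black bars for list medians and a dotted line for the median of all tested genes, 0.04. The list of other NRF2 targets has 12 red points and a median of 0.73, and the glutathione transferases have 6 blue points and a median of −0.32.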

How the data were processed

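Total RNA of sorted MLL-AF9 cells was made into strand-specific libraries and sequenced as paired ends. The authors trimmed the reads with cutadapt 1.8.1, aligned them with TopHat 2.1.1 to GRCm38 reference transcripts and derived the deposited FPKM values with Cufflinks 2.2.1. The table has 26632 entries, and entries that share a symbol (435 names) were summed here. No count model was used, since the values are not counts. The deposited FPKM values, with a pseudocount of 1, were compared on the log2 scale with limma 3.58.1 in R 4.3.3 (lmFit, eBayes with trend, two-sided, tested on simulated data), and a block, other scalings and left-out samples were alternatives. Depth was estimated from the steps of low FPKM values and gives a scale only. Deviations from the group means correlated by 0.66, 0.21 and 0.43 between samples of equal number, each over 0.1. Samples of unequal number ranged from −0.576 to 0.335. Vehicle replicate 2 correlated more with DS-5272 replicate 3 (0.335) than with replicate 2, and vehicle replicate 3 had 0.185 with DS-5272 replicate 2. These correlations do not settle which samples are pairs, and the sources used here state no pairing. The main fit therefore had no block, and results with the block rest on equal numbers being pairs.

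The members and lists were chosen with earlier results of these data known. Named genes are the 10 genes, Cdkn1a, Mdm2 and, per list, up to 2 called genes with the largest rise and 2 with the largest fall. Txnrd2, Prdx3, Gpx3, Sod1, Sod2, Cat, Ccs, Oplah and Sesn3 and the joined Hoxa9 and Hoxa10 entry were added after their values were seen. So were the macrophage markers given singly. Of the 123 list genes, 2 stood under an older symbol and 2 in joined entries, which were left out. Of 34 genes named by the rule, 11 overlap another gene in at least 1 GENCODE exon. Python 3.11.15 was used for the other steps.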

Additional observations from a re-analysis of the deposited data

How the results depend on the processing

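Beside the main 2 upregulated and 2 downregulated genes of the 10, quantile normalization left 1 upregulated, and a minimum change of 1 log2 unit left 1 upregulated and 0 downregulated. Leaving out 1 sample gave 1 to 3 upregulated and 1 to 2 downregulated genes. Of the list genes, 30 up and 16 down, that minimum left 17 up and 3 down, and scaling to a common total gave 22 up and 27 down. Leaving out 1 sample gave 16 to 31 up and 9 to 15 down, lowest without vehicle replicate 2. The counts over all tested genes moved as well. They were 978 up and 621 down with that minimum, and 1654 to 2920 up and 1404 to 2446 down over left-out samples. The lowest were again without vehicle replicate 2. Keap1 changed sign after scaling to a common total (−0.0603) and Gclm without DS-5272 replicate 2 (0.049, in a range of −0.229 to 0.049 over left-out samples). The causes were not tested. The replicate block changed the call of Gpx1 (adjusted p = 0.012, log2 fold change 0.31), Cdkn1a and Mdm2 and of no other gene named by the rule. It gave 40 upregulated and 17 downregulated list genes, in a fit that called 30.3% and 24.9% of all genes. The log2 ratio of Gclm to Gclc stayed between 0.28 and 0.51 over left-out samples. Depth limits Nqo1, at about 5 to 12 estimated fragments in the DS-5272 samples.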
